A study of Mus musculus with 6 samples.

Results

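Collagens are the fibrous proteins of the extracellular matrix, and each is built from chains that wind around each other in a helix made of glycine-rich repeats. The collagen genes were taken as every row whose symbol is Col, a number, the letter a and a number. This gave 44 of the 24848 genes listed, grouped from general knowledge as 11 fibrillar chains, 8 basement membrane chains and 25 others. Col4a3bp, which encodes a ceramide transfer protein, was the 1 symbol with the same start that was left out. All 44 passed the filter on low counts and stood among the 15848 genes tested.

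Transcripts were sequenced from whole brains of mouse embryos at E14.5 (days of gestation), 3 labelled WT and 3 labelled E4f1 KO, a knockout of the zinc finger transcription factor E4F1. The labels name no strain, allele, deleter, litter or sex, and nothing in them says what the KO and WT brains share beyond tissue and stage. E4f1 itself was at 21.4, 22.4 and 22.2 TPM in WT 1 to WT 3 and at 7.34, 7.18 and 6.91 TPM in KO 1 to KO 3, where TPM is a level per transcript length, scaled to the same total in each library. Its log2 fold change was -1.60 ± 0.08 (edgeR adjusted p = 0.00142, SE from 3 brains in each group). Neural markers were high in every library, as the tissue label says, with the neuronal tubulin Tubb3 between 1802 and 3121 TPM. The labels give no more on how far each dissection reached. Expected counts, the read pairs assigned to genes, summed to between 42113465 and 74064707 per library.

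Fibrillar collagens, such as types I, III and V, assemble into the tensile fibres of bone, skin, dura and other connective tissue, and neurons and glia make little of them. Type IV collagen forms the sheet-like network of basement membranes, which in the embryonic brain underlie the pia and wrap every vessel. Other families decorate fibrils, form beaded filaments or hexagonal lattices, or span the cell membrane.

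WT 2 and KO 3 stood apart from the other libraries in connective tissue transcripts. Ibsp, the bone sialoprotein gene, was at 0.18, 108 and 11.7 TPM in WT 1 to WT 3 and at 4.59, 1.26 and 296 TPM in KO 1 to KO 3. Sp7, a transcription factor of bone-forming cells, was at 5.71 TPM in WT 2 and 13.9 TPM in KO 3, and between 0.43 and 1.09 TPM in the other 4. The summed level of 8 bone markers was 179 and 552 TPM in WT 2 and KO 3 and between 19.7 and 79.5 TPM elsewhere. In KO 1 and KO 2 most of that sum was the osteopontin gene Spp1, at 54.3 and 61.5 TPM. Spp1 was at 178 TPM in KO 3. The summed level of 13 meningeal markers was 427 and 393 TPM against 137 to 233 TPM. Of these markers, 3 (Dcn, Lum and Ogn) are also in a list of collagen partners used below. Ptgds, the prostaglandin D synthase gene and the most abundant meningeal marker, was at 221 TPM in WT 2 and 32.9 TPM in KO 3, below the 59.4 TPM of WT 1. It thus made up much of the meningeal sum of WT 2. WT 2 and KO 3 were the 2 highest libraries in 8 of the 13, against 6.36% of all tested genes. Lum and Twist1 were higher in WT 3 than in WT 2, and Tbx18 and Crabp2 were higher in WT 1 than in WT 2. Cartilage markers were low in every library, with a summed level between 1.95 and 5.91 TPM over 7 genes (the most abundant, Cnmd, at 0.96 to 3.37 TPM), and Comp was listed at 0 in KO 2.

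Other marker lists also differed between libraries, and their part in the collagen values was not tested. The summed level of 8 neural markers was between 6081 and 6733 TPM in WT and between 4026 and 5027 TPM in KO. Most of that sum came from Tubb3, Fabp7, Stmn2 and Dcx. Of the 8 fold changes 2 were positive, against 49.9% of all tested genes, namely Sox2 (0.13 ± 0.17) and Pax6 (0.08 ± 0.23). Nes and Neurod1 overlapped between the groups. The 6 markers of the midbrain-hindbrain boundary summed to 76.6, 38.4 and 5.10 TPM in WT and to between 2.21 and 4.23 TPM in KO. Their most abundant gene, En2, was at most 0.51 TPM in KO. Fgf8, at a low level (0.92 to 1.82 TPM), went the other way, with every KO value above every WT value. Its log2 fold change was 0.53 ± 0.26. Pax2 and Pax8 overlapped between the groups. The 6 choroid plexus markers summed to 447 TPM in KO 3 and at least 814 TPM elsewhere. Most of that sum was the transthyretin gene Ttr, at 390 TPM in KO 3. The other members did not all follow: Aqp1 was highest in KO 3 (15.35 TPM). Kcne2 was lowest in WT 2, at 9.82 TPM against 10.06 TPM in KO 3. Skeletal muscle markers summed to 27.8 TPM in KO 2 and 54.8 TPM in KO 3 and to at most 11.5 TPM in the other libraries, and epidermal markers to 176 TPM in WT 3 and at most 55.0 TPM in the rest. The comparisons of each class are therefore given with all 6 libraries and without WT 2 and KO 3, a choice made after the values were seen. The second fit holds WT 1, WT 3, KO 1 and KO 2 only, and its SE leaves out the spread from the dropped brains. In whole tissue, fewer cells of a type and less RNA per cell cannot be told apart.

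No collagen gene passed the test of KO against WT. Of 44 tested, 0 had an adjusted p below 0.05 in edgeR, where 1.0% of all tested genes did, and 0 passed in DESeq2, where 8.89% of genes with an adjusted p did. The smallest edgeR adjusted p was 0.145 (Col20a1), and the smallest in DESeq2 was 0.0507 (Col20a1). At an unadjusted p below 0.05 there were 7 collagen genes, or 15.9% of the 44, against 19.6% of all tested genes. Of these, 3 had higher and 4 had lower KO levels, against 10.3% and 9.31% of all tested genes in those directions. The fold change was positive in 30 of the 44, against 49.9% of all tested genes, but this count was not stable. With all 6 libraries it was 15 of 44 with a block by animal number series and 15 of 34 in limma on log2(TPM + 1). Without KO 3 it was 13 of 44. The TPM values of the groups did not overlap in 6 collagen genes, or 13.6%, against 27.3% of all tested genes. Whether either share differs from that of all genes was not tested.

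Collagen genes differed widely between libraries of 1 group. KO 3 had the highest TPM of the 6 libraries in 28 of the 44 genes, against 21.1% of all tested genes, and WT 2 in 10, or 22.7%, against 27.0% of all tested genes. WT 2 and KO 3 were together the highest pair in 21 of 44, or 47.7%, against 6.36% of all tested genes. The highest library exceeded the lowest by a median of 3.00-fold over the collagen genes, with 20.8-fold for Col1a1 at the top and 1.54-fold for Col27a1 at the bottom. Over the 15802 tested genes with no 0, the median was 1.48-fold.

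**Figure D1:**
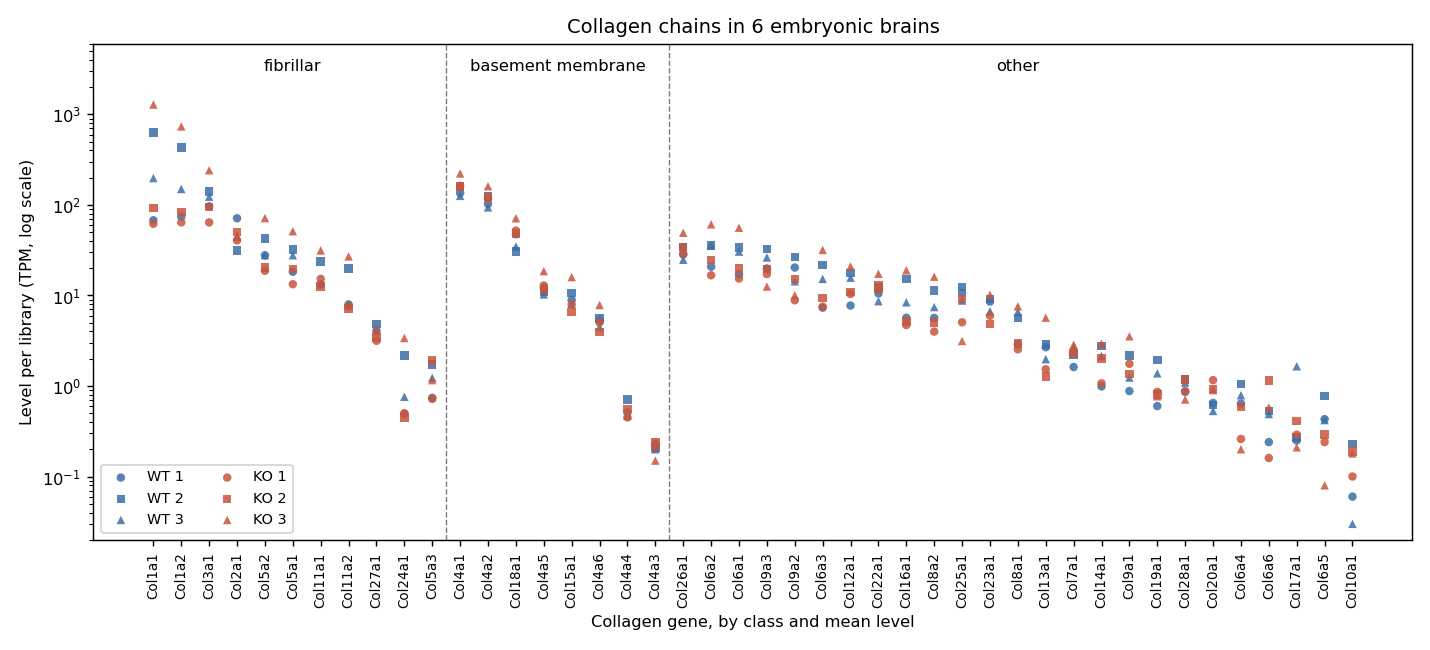
Level in TPM (log axis) of each of the 44 collagen genes in each library, by class and mean level; blue points are WT and red points KO, and circles, squares and triangles are replicates 1, 2 and 3. Col1a1 spans 61.9 to 1285 TPM, with KO 3 and WT 2 at the top, while Col4a1 spans 126 to 223 TPM.

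The 44 genes together reached 870, 1987 and 1102 TPM in WT 1 to WT 3 and 798, 926 and 3330 TPM in KO 1 to KO 3. The group means were 1319.8 ± 589.5 TPM in WT and 1685 ± 1426 TPM in KO (SD, n = 3 each), so the spread within KO was nearly as large as its mean. Fibrillar chains made up 68.5% of the collagen TPM in WT 2 and 75.0% in KO 3, and between 36.4% and 54.5% in the other libraries. Their sum ranged from 290.1 TPM in KO 1 to 2498 TPM in KO 3. The basement membrane chains varied less, between 278 TPM in WT 3 and 498 TPM in KO 3. They held 44.9% of the collagen TPM in KO 1 and only 15.0% in KO 3. The other chains summed to between 149 and 334 TPM.

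Col1a1 and Col1a2, the chains of type I collagen, were the most abundant collagen transcripts on average. Col1a1 (chromosome 11, 94936224 to 94953042, GRCm38) was at 67.8, 628 and 198 TPM in WT 1 to WT 3 and at 61.9, 93.0 and 1285 TPM in KO 1 to KO 3. Its level in KO 3 was thus 16.6 times the mean of KO 1 and KO 2, and that in WT 2 was 4.72 times the mean of WT 1 and WT 3. The log2 fold change was 0.74 ± 1.32 (SE, edgeR adjusted p = 0.783), with an SE larger than the estimate. Col1a2 was at 74.1, 433 and 150 TPM in WT and at 64.2, 83.7 and 736 TPM in KO, and its groups overlapped in the same way. Its log2 fold change was 0.47 ± 1.09 (edgeR adjusted p = 0.836). Bone sialoprotein, which type I collagen accompanies in bone, was highest in the same libraries, KO 3, WT 2 and then WT 3. What part that tissue plays in the collagen values was not tested.

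Col3a1, the single chain of type III collagen in soft connective tissue and vessel walls, varied less. It was at 96.5, 140 and 123 TPM in WT and at 64.2, 95.0 and 242.03 TPM in KO (log2 fold change 0.19 ± 0.49, edgeR adjusted p = 0.852). KO 1 was the lowest and KO 3 the highest of all libraries, so that the KO values enclosed those of WT. Col5a2, of type V collagen, which controls fibril diameter, was at 27.8, 42.4 and 27.8 TPM in WT and at 18.7, 20.3 and 71.6 TPM in KO (0.21 ± 0.56, edgeR adjusted p = 0.857). Its partner Col5a1 ranged from 13.3 TPM in KO 1 to 51.3 TPM in KO 3, whereas Col5a3 stayed between 0.72 and 1.91 TPM.

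The upstream sequences of Col1a2 and Col3a1 are shown because these fibrillar genes were both highest in KO 3 and then WT 2, and their windows hold different matches. Each line gives the 250 bases before the RefSeq start on the plus strand of GRCm38.p6, chr6:4505368-4505617 for Col1a2 and chr1:45311288-45311537 for Col3a1. Capitals mark matches on either strand to CCAAT (the CCAAT box), GGGCGG (the GC box of Sp1 factors) and TATAAA (the TATA box).
Col1a2: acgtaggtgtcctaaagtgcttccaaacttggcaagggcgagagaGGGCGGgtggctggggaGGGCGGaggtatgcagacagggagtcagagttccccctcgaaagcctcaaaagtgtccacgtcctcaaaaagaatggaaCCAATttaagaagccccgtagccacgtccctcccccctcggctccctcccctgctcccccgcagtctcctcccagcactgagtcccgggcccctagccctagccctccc
Col3a1: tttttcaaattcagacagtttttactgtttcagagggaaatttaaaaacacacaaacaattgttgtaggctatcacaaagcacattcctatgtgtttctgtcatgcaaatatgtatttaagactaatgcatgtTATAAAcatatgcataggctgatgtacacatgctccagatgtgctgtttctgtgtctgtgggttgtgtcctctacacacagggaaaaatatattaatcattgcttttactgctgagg

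The Col1a2 window held 2 matches to GGGCGG, starting 205 and 188 bases before the start, and 1 match to CCAAT at 109 bases. The Col3a1 window held a match to TATAAA at 117 bases and neither of the others. A window was given for 35 of the 44 collagen genes. Of their 38 windows, 22 (57.9%) held GGGCGG, against 32.7% of all 32851 windows of the same length. CCAAT was in 34.2% of collagen windows and 33.8% of all windows, and TATAAA in 13.2% and 12.4%. The sequence TGACGTNA, the core of the site described for E4F1, was in 0 of the 38 collagen windows and in 2.52% of all windows. These matches describe letters in a window and were not set against the expression values.

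The fibrillar chains of cartilage followed more than 1 pattern. Col2a1, the chain of type II collagen, which is also made by embryonic neuroepithelium, was at 71.3, 31.4 and 45.7 TPM in WT and at 40.6, 50.4 and 44.4 TPM in KO. It was lowest in WT 2, where Col1a1 was high, and its log2 fold change was -0.11 ± 0.29 (edgeR adjusted p = 0.848). Acan, the aggrecan gene that marks cartilage, was at most 0.84 TPM in any library, and Col10a1, of hypertrophic cartilage, at most 0.23 TPM. Col11a1 and Col11a2, the type XI chains that are found with both type I and type II, were highest in KO 3 (31.4 and 27.0 TPM) and WT 2 (23.7 and 19.9 TPM). In the other libraries they lay between 12.5 and 15.3 TPM and between 7.22 and 7.96 TPM. Col24a1 had the same order at a lower level, 3.39 TPM in KO 3, 2.18 TPM in WT 2 and at most 0.76 TPM elsewhere. Col27a1 was even, from 3.16 to 4.86 TPM.

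The sign of the fibrillar comparison changed with the libraries and with the fit. In the edgeR fit of all 6 libraries, 9 of the 11 fibrillar fold changes were positive, with a median log2 fold change of 0.21, against a median of all tested genes of -0.00. With the same 6 libraries, limma on log2(TPM + 1) gave 3 of 10 positive (median -0.06), and edgeR with a block by animal number series gave 2 of 11 (median -0.11). Without KO 3, 1 of 11 was positive and the median was -0.66. Without both KO 3 and WT 2, 2 of 11 were positive and the median was -0.40. This fit keeps WT 3, where Col1a1 was at 198 TPM and Ibsp at 11.7 TPM, against 67.8 and 0.18 TPM in WT 1. The fibrillar sum was 382 TPM in WT 1 and 600 TPM in WT 3, and 290 and 388 TPM in KO 1 and KO 2. The part of WT 3 in these signs was not tested. In that last fit, of WT 1 and WT 3 against KO 1 and KO 2, Col5a2 had the smallest adjusted p of the class. Its log2 fold change there was -0.52 ± 0.08 (edgeR adjusted p = 0.0944). WT 2 and KO 3 had its highest TPM, so this SE and p leave out most of its spread between brains. No fibrillar gene was called in either fit.

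**Figure D2:**
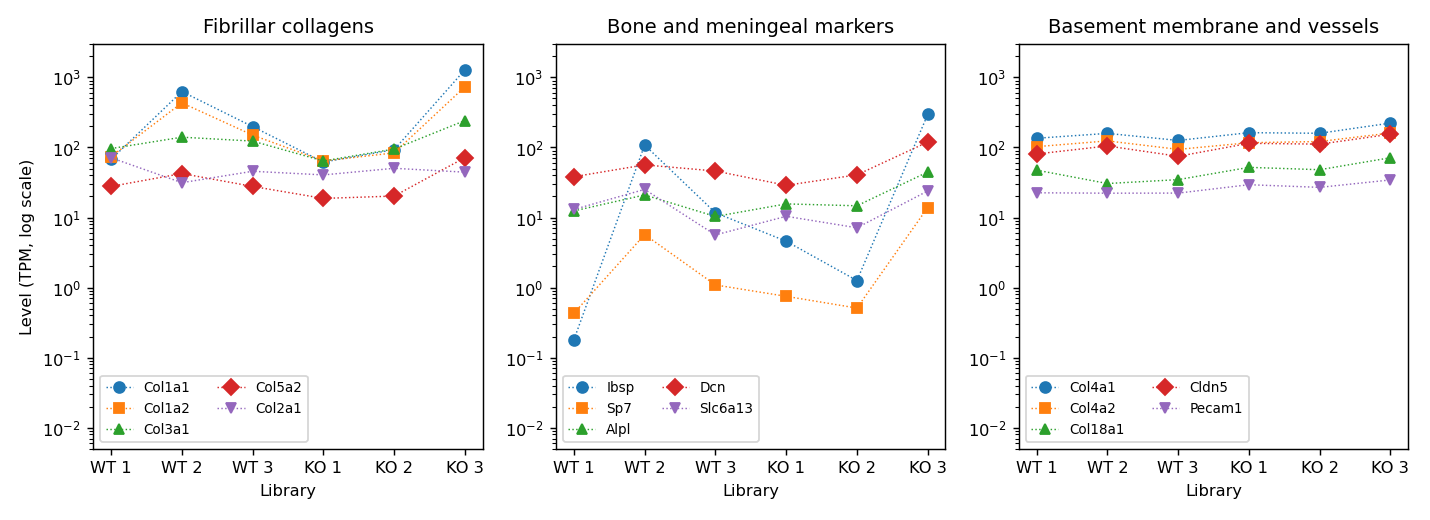
Level in TPM (log axis) by library of 5 fibrillar collagens, of 5 bone and meningeal markers, and of 3 basement membrane collagens with 2 endothelial markers; dotted lines only join the points of a gene. Col1a1 and Ibsp are highest in KO 3 and then in WT 2, Col2a1 is lowest in WT 2, and the 5 genes of the third panel vary at most 2.33-fold (Col18a1).

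Among the basement membrane chains, Col4a1 and Col4a2 of the network found in all vessels were the most abundant. Col4a1 (chromosome 8, 11198423 to 11312889, GRCm38) was at 135, 159 and 126 TPM in WT and at 163, 159 and 223 TPM in KO. The groups met at their edges without overlap, 158.85 TPM in WT 2 against 159.41 TPM in KO 2. The log2 fold change was 0.40 ± 0.17 (edgeR adjusted p = 0.254), and without WT 2 and KO 3 it was 0.30 ± 0.08 (edgeR adjusted p = 0.199). Col4a2, its neighbour on chromosome 8, was at 103, 124 and 93.9 TPM in WT and at 117, 122 and 161 TPM in KO (0.34 ± 0.17, edgeR adjusted p = 0.312). The WT 2 value lay above those of KO 1 and KO 2.

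Col18a1, whose proteoglycan product in basement membranes yields endostatin, had the largest fold change of this class. It was at 47.5, 30.6 and 34.8 TPM in WT and at 52.0, 48.1 and 71.4 TPM in KO, without overlap. The log2 fold change was 0.63 ± 0.22 (edgeR adjusted p = 0.203), and without WT 2 and KO 3 it was 0.28 ± 0.15. Its relative Col15a1 was between 6.55 and 16.0 TPM, with KO 2 lowest and KO 3 highest (0.18 ± 0.35, edgeR adjusted p = 0.806), and without WT 2 and KO 3 its fold change was negative (-0.22 ± 0.14).

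The remaining type IV chains were scarcer. Col4a5, of the network of kidney and smooth muscle, was at 12.1, 11.1 and 10.3 TPM in WT and at 12.9, 11.7 and 18.6 TPM in KO (log2 fold change 0.40 ± 0.19, edgeR adjusted p = 0.309). Col4a6 ranged from 3.96 to 7.85 TPM. Col4a3 and Col4a4, which join Col4a5 in the kidney glomerulus, were at most 0.24 and 0.71 TPM. Over the 8 genes of this class, 6 were positive and the median was 0.26, and the median was 0.12 without KO 3 and 0.10 without KO 3 and WT 2.

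Endothelial transcripts were also at higher TPM in KO on average. All 9 endothelial markers had a positive fold change (median 0.43), against 49.9% of all tested genes. In 7 of them every KO value lay above every WT value, against 12.6% of all tested genes. KO 3 was the highest library in 8 of the 9, against 21.1% of all tested genes. None of the 9 was called, where 1.0% of all tested genes were, and the lowest edgeR adjusted p was 0.107 (Pecam1). Cldn5, the tight junction claudin of brain vessels, was at 80.7, 105 and 74.8 TPM in WT and at 115, 112 and 155 TPM in KO (log2 fold change 0.57 ± 0.18, edgeR adjusted p = 0.182). The summed level of the 9 markers was between 220.5 and 273 TPM in WT and between 292 and 403 TPM in KO. Pericyte markers, of the cells that share the vessel's basement membrane, had a median of 0.23 over 8 genes, their most abundant gene Rgs5 lying between 51.2 and 83.0 TPM. The part of vessel cells in the collagen values was not tested.

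Of the 25 other chains, none was called, 15 had positive fold changes and the median was 0.07. Without KO 3 the count was 7 of 25 and the median -0.57, and without KO 3 and WT 2 it was 7 of 24 and -0.44. Col10a1 was not tested in that last fit.

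Type VI collagen forms beaded filaments around cells from 3 chains, Col6a1, Col6a2 and Col6a3. Col6a2 was at 20.8, 35.5 and 35.6 TPM in WT and at 16.7, 24.6 and 61.0 TPM in KO (log2 fold change 0.19 ± 0.51, edgeR adjusted p = 0.861). Col6a1 and Col6a3 ranged from 15.4 to 56.0 TPM and from 7.33 to 31.8 TPM, each highest in KO 3. Their relatives on chromosome 9 differed. Col6a4 was at 0.64, 1.05 and 0.79 TPM in WT and at 0.26, 0.59 and 0.20 TPM in KO (-1.22 ± 0.45, edgeR adjusted p = 0.219). Col6a5 was at 0.43, 0.78 and 0.42 TPM in WT and at 0.24, 0.29 and 0.08 TPM in KO (-1.39 ± 0.51, edgeR adjusted p = 0.216). Every KO value lay below every WT value in both, and KO 3 was the lowest, the reverse of its place in Col6a1 to Col6a3. Without WT 2 and KO 3 the fold changes of Col6a4 and Col6a5 were -0.77 ± 0.44 and -0.69 ± 0.25. Col6a6, the third gene there, was between 0.16 and 1.15 TPM with overlap.

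Type IX collagen coats type II fibrils, and Col9a2 and Col9a3 were at lower TPM in KO on average. Col9a3 was at 19.9, 32.5 and 26.3 TPM in WT and at 17.2, 19.7 and 12.6 TPM in KO, with no overlap (log2 fold change -0.64 ± 0.23, edgeR adjusted p = 0.205). Col9a2 was at 20.4, 26.7 and 14.3 TPM in WT and at 8.85, 15.3 and 10.1 TPM in KO, where KO 2 exceeded WT 3 (-0.82 ± 0.29, edgeR adjusted p = 0.208). Without WT 2 and KO 3 the fold changes of Col9a3 and Col9a2 were -0.33 ± 0.17 and -0.53 ± 0.32. Col9a1, the chain that completes the molecule, had a positive fold change at a low level, from 0.88 TPM in WT 1 to 3.54 TPM in KO 3 (0.65 ± 0.50, edgeR adjusted p = 0.501).

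The other fibril-associated chains lacked a common pattern. Col20a1 was at 0.65, 0.62 and 0.53 TPM in WT and at 1.16, 0.93 and 0.90 TPM in KO, with no overlap and similar values within each group (log2 fold change 0.76 ± 0.22, edgeR adjusted p = 0.145). Its counts were between 40 and 131 per library, and without WT 2 and KO 3 the fold change was 0.82 ± 0.27. Col22a1, of the muscle-tendon junction, was at 10.5, 12.3 and 8.65 TPM in WT and at 11.5, 12.8 and 17.4 TPM in KO (0.44 ± 0.20, edgeR adjusted p = 0.293). Col12a1 and Col16a1 were highest in KO 3 (21.0 and 19.0 TPM) and WT 2 (17.8 and 15.2 TPM), as was Col14a1 at 2.92 and 2.75 TPM. Col19a1 was between 0.60 and 1.94 TPM.

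Among the membrane-spanning chains, Col25a1, a neuronal collagen, was at 10.7, 12.5 and 8.79 TPM in WT and at 5.06, 9.19 and 3.14 TPM in KO (log2 fold change -0.85 ± 0.38, edgeR adjusted p = 0.276). Only KO 2 reached the WT values, and without WT 2 and KO 3 the fold change was -0.45 ± 0.31. Col23a1 lay between 4.87 and 10.2 TPM and Col13a1 between 1.28 and 5.68 TPM. Col17a1, which anchors basal keratinocytes, was at 1.65 TPM in WT 3 and at most 0.41 TPM in the other 5 libraries. The keratin gene Krt5 was likewise highest in WT 3, at 63.3 TPM against 1.06 to 14.6 TPM elsewhere, and whether skin cells contribute there was not tested.

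Col26a1 was the most abundant of the other chains, at 28.3, 34.2 and 24.8 TPM in WT and at 28.9, 34.3 and 49.3 TPM in KO (log2 fold change 0.39 ± 0.23, edgeR adjusted p = 0.378). The lattice-forming Col8a1 and Col8a2, of vessel walls and the cornea, ranged from 2.54 to 7.59 TPM and from 3.99 to 16.1 TPM, with KO 3 highest in each. Col7a1, of the anchoring fibrils of skin, ranged from 1.62 to 2.86 TPM and Col28a1 from 0.71 to 1.18 TPM.

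**Figure D3:**
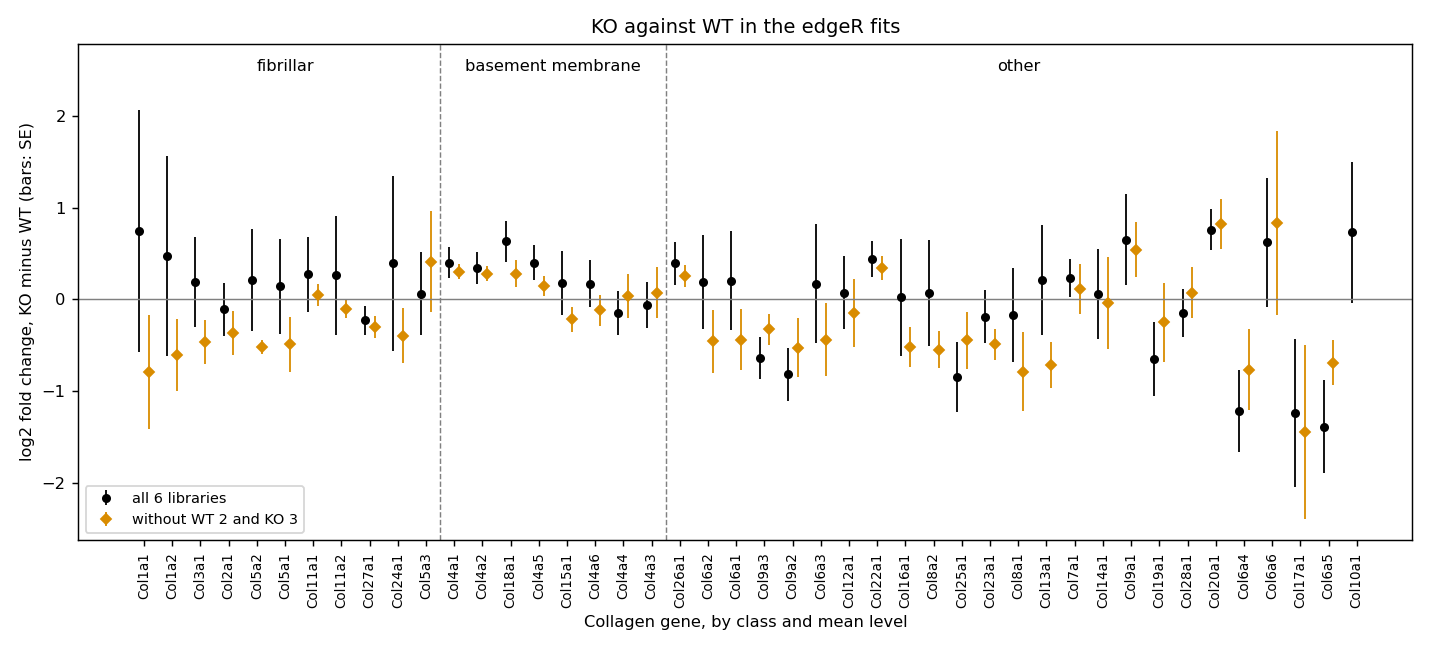
Log2 fold change of KO minus WT for each collagen gene with its SE, from the edgeR fit of all 6 libraries (black circles) and from the fit without WT 2 and KO 3 (orange diamonds, no value for Col10a1). The black points of Col1a1 at 0.74 and Col3a1 at 0.19 lie above 0 and their orange points below it, whereas Col4a1 is above 0 in both.

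Chains that share a molecule or a locus were compared as TPM ratios within each library, which cancels any factor common to both genes. Of 15 ratios computed, the groups overlapped in 13. With 3 libraries per group no exact test can go below p = 0.1, so the ratios are given as values. Col4a1 to Col4a2, whose gene spans overlap head to head by 85 bases (22 bases by their listed starts), held between 1.28 and 1.39 in all 6 libraries. Col6a1 to Col6a2, which lie 85161 bases apart on chromosome 10, was nearly as steady, between 0.81 and 0.96. Col3a1 and Col5a2, with 24624 bases between them on chromosome 1, kept a ratio between 3.30 and 4.69 although the genes themselves varied 3.77-fold and 3.82-fold. That ratio varied 1.42-fold, and the ratio of Col4a1 to Col4a5, on chromosomes 8 and X, varied 1.28-fold. Among other neighbours, Col4a4 to Col4a3 varied 1.58-fold and Col4a5 to Col4a6 1.49-fold. The part of a shared locus was not tested.

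Type I collagen behaved differently. Col1a1 to Col1a2, chains that the protein holds in unequal numbers, was 0.91, 1.45 and 1.32 in WT and 0.96, 1.11 and 1.75 in KO, highest in KO 3 and WT 2. The ratio of Col1a1 to Col3a1 was 4.48 in WT 2 and 5.31 in KO 3, and between 0.70 and 1.61 in the other libraries, the widest range of the 15. Col2a1 to Col11a1 ran the other way, with 1.33 in WT 2, 1.41 in KO 3 and between 2.66 and 5.36 elsewhere.

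The groups did not overlap in the ratio of Col4a5 to Col4a6, which was 2.30, 1.99 and 2.30 in WT and 2.56, 2.95 and 2.37 in KO, nor in that of Col9a3 to Col9a1. The latter was 22.6, 15.1 and 21.2 in WT and 9.80, 14.6 and 3.55 in KO.

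**Figure D4:**
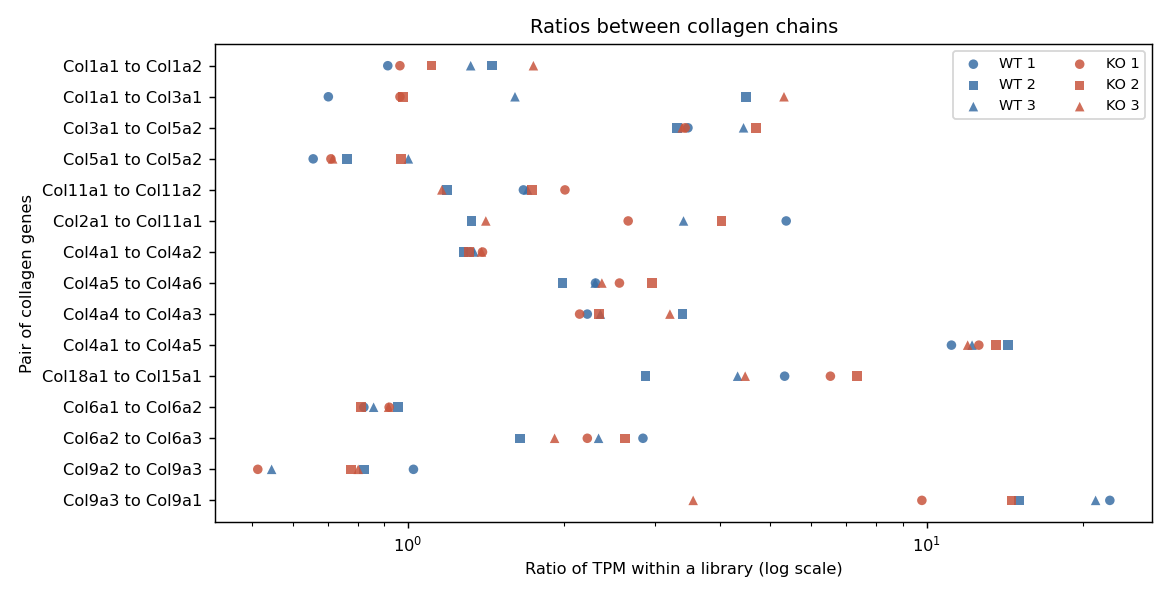
Ratio of TPM between pairs of collagen genes within each library (log axis), blue for WT and red for KO, with circles, squares and triangles for replicates 1, 2 and 3. Col4a1 to Col4a2 stays between 1.28 and 1.39, while Col1a1 to Col3a1 spans 0.70 to 5.31.

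Genes that make, process, bind or break down collagen did not pass the test in edgeR either, with 0 called of 80 tested genes on 6 lists, and 9 (11.3%) had an unadjusted p below 0.05, against 19.6% of all tested genes. DESeq2 called 6 of the 80, where it called 8.89% of all genes with an adjusted p. It called Lama5 (a laminin chain of mature vessels), Itga1 (a collagen-binding integrin subunit) and P3h4 (of the lysyl hydroxylation complex) higher. It called Bmp1 (the procollagen C-proteinase), Pxdn (the peroxidase that crosslinks type IV collagen) and Timp4 (a metalloproteinase inhibitor) lower. In edgeR, Lama5 came nearest to the threshold, at 4.76, 4.20 and 5.58 TPM in WT and at 9.55, 7.02 and 8.53 TPM in KO (log2 fold change 0.81 ± 0.15, edgeR adjusted p = 0.0721). Pxdn was at 81.0, 80.3 and 78.2 TPM in WT and at 64.1, 69.9 and 57.9 TPM in KO (-0.30 ± 0.08, edgeR adjusted p = 0.129).

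Among 22 genes of intracellular collagen synthesis, 15 had a positive log2 fold change (median 0.16), against 49.9% of all tested genes, and 0 passed the test. Serpinh1, the collagen chaperone HSP47, was at 208, 224 and 199 TPM in WT and at 245, 238 and 465 TPM in KO (log2 fold change 0.62 ± 0.28, edgeR adjusted p = 0.281). Ppib, a prolyl isomerase that also serves other secreted proteins, was more even, from 337 to 444 TPM. Among the proteoglycans bound to fibrils, WT 2 and KO 3 were the highest pair in 5 of 8, against 6.36% of all tested genes. Of their fold changes 6 were positive (median 0.36), against 49.9% of all tested genes. In the list of extracellular processing and crosslinking, 11 of 15 were positive, with a median of 0.23. KO 3 was the highest library in 6 of the 8 and in 10 of the 15, against 21.1% of all tested genes. These signs are those of the fit with KO 3 included. Dcn, the decorin gene, was at 38.3, 56.4 and 46.1 TPM in WT and at 28.8, 40.7 and 119 TPM in KO, and Bgn, the biglycan gene, reached 94.0 TPM in WT 2 and 178 TPM in KO 3. Sparc, which binds collagen outside the cell, reached 377 and 624 TPM there, against 208 to 233 TPM in the other libraries.

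The 15 laminins, nidogens and other basement membrane partners had a median log2 fold change of 0.15, with 10 positive, where 49.9% of all tested genes were. Agrn, the agrin gene and the most abundant, was between 193 and 258 TPM, and Lamc1, the common laminin gamma chain, between 39.5 and 56.1 TPM. Of 10 tested receptors, 8 were positive (median 0.12). Adgrg1, the receptor for type III collagen on neural progenitors, was between 181 and 273 TPM, and the discoidin domain receptor Ddr1 between 121 and 194 TPM. Of 10 tested genes of collagen breakdown 3 were positive, and the median was -0.16, with Timp2 between 95.7 and 152 TPM and Mmp14 between 66.3 and 98.8 TPM. KO 3 was the highest library in 10 of the 15 partners, 6 of the 10 receptors and 4 of the 10 breakdown genes. Over all tested genes that share was 21.1%. The signs of these 3 lists are also those of the fit with KO 3 included. Timp4 was at 1.82, 2.55 and 0.65 TPM in WT and at 0.26, 0.74 and 0.12 TPM in KO (-2.13 ± 0.75, edgeR adjusted p = 0.206).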

How the data were processed

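Per the labels' protocols, RNA was taken with Trizol from flash-frozen brains and stranded mRNA libraries were made. Per the submitters' processing notes, reads were handled with STAR (2.5.3a) and RSEM (1.2.28), after FastQC and Trimmomatic, on mm10 or GRCm38. The sources used here do not give the settings or the strand used in counting. Per the file headers, the authors deposited expected counts and TPM values for each gene. Expected counts were rounded and tested with edgeR (4.0.16): filterByExpr, TMM scaling and the robust quasi-likelihood F test, two-sided, with Benjamini-Hochberg adjustment over all tested genes, called below 0.05. Fold changes are log2 of KO minus WT. TPM values per library served as levels and kept no depth. On simulated counts with 15702 tested genes edgeR recovered 64 of 98 2-fold and 85 of 96 4-fold changes, with 14 false calls. The changed genes were picked at random and each gene was drawn independently. This recovery therefore need not hold for genes as variable as the collagens, such as Col1a1 with an SE of 1.32.

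The labels give each library an animal number of its own, and pairs of 1 group differed far beyond sampling noise (chi-square per degree of freedom 43.5 to 168). The members, the lists of partners and markers, and the tests were chosen with earlier results of these data known. All collagen genes are named; of each partner list the 2 most abundant, and of marker lists the most abundant. Genes named beyond this, such as Sp7, Alpl, Acan, Comp, Slc6a13, Pecam1, Spp1 and Timp4, were chosen after their values were seen, as was the fit without WT 2 and KO 3. Alternatives were DESeq2 (1.42.0), limma (3.58.1) on log2(TPM + 1) and log2(TPM + 0.1) with at least 1 TPM in 3 libraries, other scalings, no filter, blocks by replicate number or animal number series (WT 1, WT 2, KO 1 and KO 2 have animal numbers close together), and leaving out libraries. The labels name no series, and WT 3 (164) and KO 3 (242), put together by that block, do not have close numbers. Promoter windows and gene positions came from RefSeq tables of GRCm38.p6.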

Additional observations from a re-analysis of the deposited data

How the results depend on the processing

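No collagen gene that was tested was called under any of the 16 alternatives run, but both limma fits tested 34 of the 44 and the fit without WT 2 and KO 3 tested 43. For the partner lists, DESeq2 called 3 genes higher and 3 lower, and the other 15 called none. Over all tested genes edgeR called 159, DESeq2 1437, and limma 245 and 248 with a pseudocount of 1 and 0.1. A block by animal number series gave 87 calls. The 4 brains with close animal numbers by themselves (without WT 3 and KO 3) gave 0, with 1546 at an unadjusted p below 0.05 in edgeR. The fit without WT 2 and KO 3 gave 62, and leaving out 1 library gave between 36 and 82.

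Of 15 collagen genes given with a fold change as most abundant or at an unadjusted p below 0.05, 6 changed sign under some alternative and 9 did not in the fits that tested them. Col20a1, Col6a4 and Col6a5, among the 9, were not tested in limma. The log2 fold changes of Col1a1, Col1a2, Col3a1, Col5a2 and Col6a2 became -0.060, -0.092, -0.057, -0.081 and -0.016 with limma on log2(TPM + 1), and -0.063, -0.094, -0.059, -0.090 and -0.021 on log2(TPM + 0.1). In the same order they were -0.84, -0.59, -0.041, -0.11 and -0.016 with the block by animal number series. They were -2.14, -1.75, -0.55, -0.83 and -0.43 in the 4 brains with close animal numbers, and -0.79, -0.61, -0.47, -0.52 and -0.46 without WT 2 and KO 3. Leaving out 1 library gave ranges of -1.93 to 1.89, -1.55 to 1.43, -0.58 to 0.53, -0.73 to 0.54 and -0.56 to 0.52 for these 5 genes and -0.36 to 0.24 for Col2a1, the lowest values of the first 5 being those without KO 3. Without WT 1 Col2a1 had 0.24 and Col6a2 -0.030. The cause was not tested.

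The replicate numbers were not taken to pair the brains: deviations from the group means correlated at 0.12, 0.17 and 0.016 for numbers 1, 2 and 3, and WT 3 correlated better with KO 1 (0.12) than with KO 3. With the replicate block edgeR called 66 genes and no collagen gene, 20 of 44 collagen and 4 of 11 fibrillar fold changes were positive (medians -0.03 and -0.04), and Col1a1, Col1a2, Col3a1, Col5a2 and Col6a2 had -0.061, -0.096, -0.044, -0.089 and -0.00051. Scaling by library totals called 123 genes higher and 63 lower, against 81 and 78, and moved the median of all genes by 0.06 and that of the 44 collagen genes from 0.17 to 0.24. Depth limits the scarcest genes: Col10a1 had between 2 and 13 counts per library.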

Other observations

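Spp1, the osteopontin gene on the bone marker list, did not have the order of the other bone genes. It was at 4.80, 36.1 and 7.32 TPM in WT 1 to WT 3 and at 54.3, 61.5 and 178 TPM in KO 1 to KO 3, so that every KO value lay above every WT value. Its log2 fold change was 2.66 ± 0.90 (edgeR adjusted p = 0.192). Skeletal muscle markers were spread differently again. Mylpf, a myosin light chain of fast muscle, was at 2.69, 3.48 and 3.32 TPM in WT and at 4.41, 8.75 and 19.5 TPM in KO (1.85 ± 0.59, edgeR adjusted p = 0.177).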
